A study of Homo sapiens with 6 samples.

Results

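The 38 genes described here make nucleotides or feed their synthesis: 8 of deoxynucleotide synthesis, 2 nucleotide kinases, 5 of pyrimidine synthesis, 2 of ribose 5-phosphate activation, 9 of purine synthesis, 5 of one-carbon synthesis, 3 of the oxidative and 4 of the nonoxidative pentose phosphate pathway. They were chosen by name from 19775 genes, not by their signal. Of them, 36 had a probe set naming the gene alone that was bright enough to be tested. RNA from IMR90 cells, an established line of human diploid lung fibroblasts, was hybridized to 6 arrays. All cells carried an inducible ER:Ras, an oncogenic H-ras fused to the estrogen receptor that 4-OHT switches on, which drives the fibroblasts into oncogene-induced senescence (OIS). In RB-KD OIS cells 4-OHT was given at 100 nM for 6 days, and siRNA against RB1 was added 4 days before RNA was taken. Ctrl-KD OIS cells received the same 4-OHT and a control siRNA, and growing cells received neither 4-OHT nor siRNA, so OIS and the transfection cannot be told apart in comparisons with growing cells. The labels give 2 biological replicates in each state. An exact permutation test of 2 arrays against 2 cannot go below p = 0.333, so calls come from a limma fit over 13398 genes, at a Benjamini-Hochberg adjusted p under 0.05. The RNA came from whole cultures, in which fewer cells in cycle and less RNA per cell cannot be told apart.

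Cells build purine and pyrimidine nucleotides on ribose 5-phosphate, which the pentose phosphate pathway supplies and PRPP synthetases activate. One-carbon units carried by folate complete the purine ring and the methyl group of thymidylate. Ribonucleotide reductase then turns ribonucleotides into the deoxynucleotides used for DNA, and several of these genes are known to be transcribed mainly around S phase, when RB protein no longer holds back E2F transcription factors.

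RB1, the target of the siRNA, had signals of 222 and 228.5 in RB-KD OIS cells, 2578 and 1914.5 in Ctrl-KD OIS cells and 2627 and 2528 in growing cells. The RB-KD OIS arrays were far below all others, with a log2 fold change of -3.30 (SE 0.14, adjusted p = 2.73e-06) against Ctrl-KD OIS cells and -3.52 (SE 0.14, adjusted p = 3.14e-07) against growing cells. Averaging RB1 over all its probe sets gave -1.48 against Ctrl-KD OIS cells (adjusted p = 0.251). Log2 signals correlated at 0.971 to 0.974 between replicates and at 0.893 to 0.953 between arrays of different states. All 10 fibroblast markers were above the array median on all 6 arrays, and their summed signal was 147168 to 176241 in RB-KD OIS cells, 130423 to 131134 in Ctrl-KD OIS cells and 211101 to 212592 in growing cells. None of 5 leukocyte markers, 2 of 5 epithelial and 2 of 5 endothelial markers were above it on all 6 arrays. Of the endothelial markers only TEK was called between the OIS states, with mean signals of 1295 for RB-KD OIS, 339 for Ctrl-KD OIS and 1189 for growing cells, while PECAM1 and VWF were not called and CDH5 and KDR were at or below the array median on all 6 arrays. The part of the fibroblast and TEK shifts in the results was not tested.

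Promoter sequences are shown for 5 members that stood at different levels across the states, to set the letters before the start site beside the signals. The windows come from RefSeq GRCh38.p14, which held a promoter for 34 of the 38 members, and each run below is the 130 bases just before the start site, written 5′ to 3′ on the strand of the gene. In the first 3, capitals mark an E2F-type word (TTTGGCGC, TTTCCCGC, TTTCGCGC or TTTGCCGC, searched on both strands), and in the last 2 they mark the CCAAT word or its reverse complement ATTGG.
TYMS, chr18:657523-657652, plus strand: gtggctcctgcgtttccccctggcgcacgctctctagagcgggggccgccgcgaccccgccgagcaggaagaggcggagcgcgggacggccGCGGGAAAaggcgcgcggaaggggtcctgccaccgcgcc
DUT, chr15:48332067-48332196, plus strand: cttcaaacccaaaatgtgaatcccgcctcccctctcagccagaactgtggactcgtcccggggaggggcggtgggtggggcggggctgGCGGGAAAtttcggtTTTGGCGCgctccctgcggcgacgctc
PRPS2, chrX:12791282-12791411, plus strand: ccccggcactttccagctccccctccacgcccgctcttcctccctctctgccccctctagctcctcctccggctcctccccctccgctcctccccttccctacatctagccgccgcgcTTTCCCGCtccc
RRM2, chr2:10122609-10122738, plus strand: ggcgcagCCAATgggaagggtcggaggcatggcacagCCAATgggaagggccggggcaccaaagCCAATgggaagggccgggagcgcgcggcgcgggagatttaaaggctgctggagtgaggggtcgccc
TK1, chr17:78187053-78187182, minus strand: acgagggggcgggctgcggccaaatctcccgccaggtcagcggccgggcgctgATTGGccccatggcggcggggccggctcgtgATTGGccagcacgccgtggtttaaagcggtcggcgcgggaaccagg

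Over the whole window of 250 bases before and 50 after a start site, 5 of 34 members (14.7%) held an E2F-type word: TYMS, DUT and DCK of deoxynucleotide synthesis, PRPS2, and GART of purine synthesis. Among all genes with a window, 1090 of 27305 (3.99%) held one. The word starts at base -39 in TYMS, at -42 and -27 in DUT, at -12 in PRPS2, at 22 after the start in DCK and at -245 in GART. The CCAAT word stood in 18 of 34 members (52.9%), against 10846 of 27305 genes (39.7%), and in RRM2 it starts at -123, -93 and -66. DUT, RRM2 and TK1 have other annotated start sites, and their windows are not shown. GART has several start sites too. In DUT and in GART the E2F-type word stood in the window of only 1 annotated start site. Other words were searched too. The E-box word CACGTG stood in 8 of 34 members (23.5%, against 8.77% of all genes with a window). TGACNNNGC, an ARE-type word in which N is any base, stood in 8 (23.5%, against 16.1%). TTTGAA, the CHR word, stood in 5 (14.7%, against 18.2%) and TGATGNAA, an ATF4-type word, in 1 (2.94%, against 4.46%). A match is a description of the letters and names no bound factor.

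Between the OIS states, 5 of 8 deoxynucleotide genes and all 3 tested of 5 one-carbon genes were called higher in RB-KD OIS cells, while no pyrimidine ring gene and 2 of 7 pentose phosphate genes were called, 1 higher and 1 lower. Of the 36 tested members, 15 rose and 4 fell in RB-KD OIS relative to Ctrl-KD OIS cells, where 12.6% of all tested genes were called higher and 11.6% lower. Against growing cells, 15 members were higher and 10 lower in RB-KD OIS cells (18.5% and 19.0% of all tested genes). In Ctrl-KD OIS cells 7 members rose and 17 fell against growing cells (20.5% and 21.2%). The median log2 fold change of the members was 0.27, 0.14 and -0.20 in these 3 comparisons, and that of all tested genes was -0.02, -0.02 and -0.01. Centring each array on its median raised the median of all tested genes by 0.11 in RB-KD OIS relative to growing cells and gave 16 members higher and 5 lower there. The comparisons share arrays, so their values stand side by side without a test of one against another. Of the calls, 9 of 19, 14 of 25 and 19 of 24 held in all 6 fits that left out 1 array. Between the OIS states, the members called higher numbered 11 without RB-KD OIS replicate 1 and 9 without replicate 2, and those called lower 0 and 2. Against growing cells, 5 and 4 members were called lower in RB-KD OIS cells without growing replicate 1 and 2, and 5 without RB-KD OIS replicate 1.

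**Figure D1:**
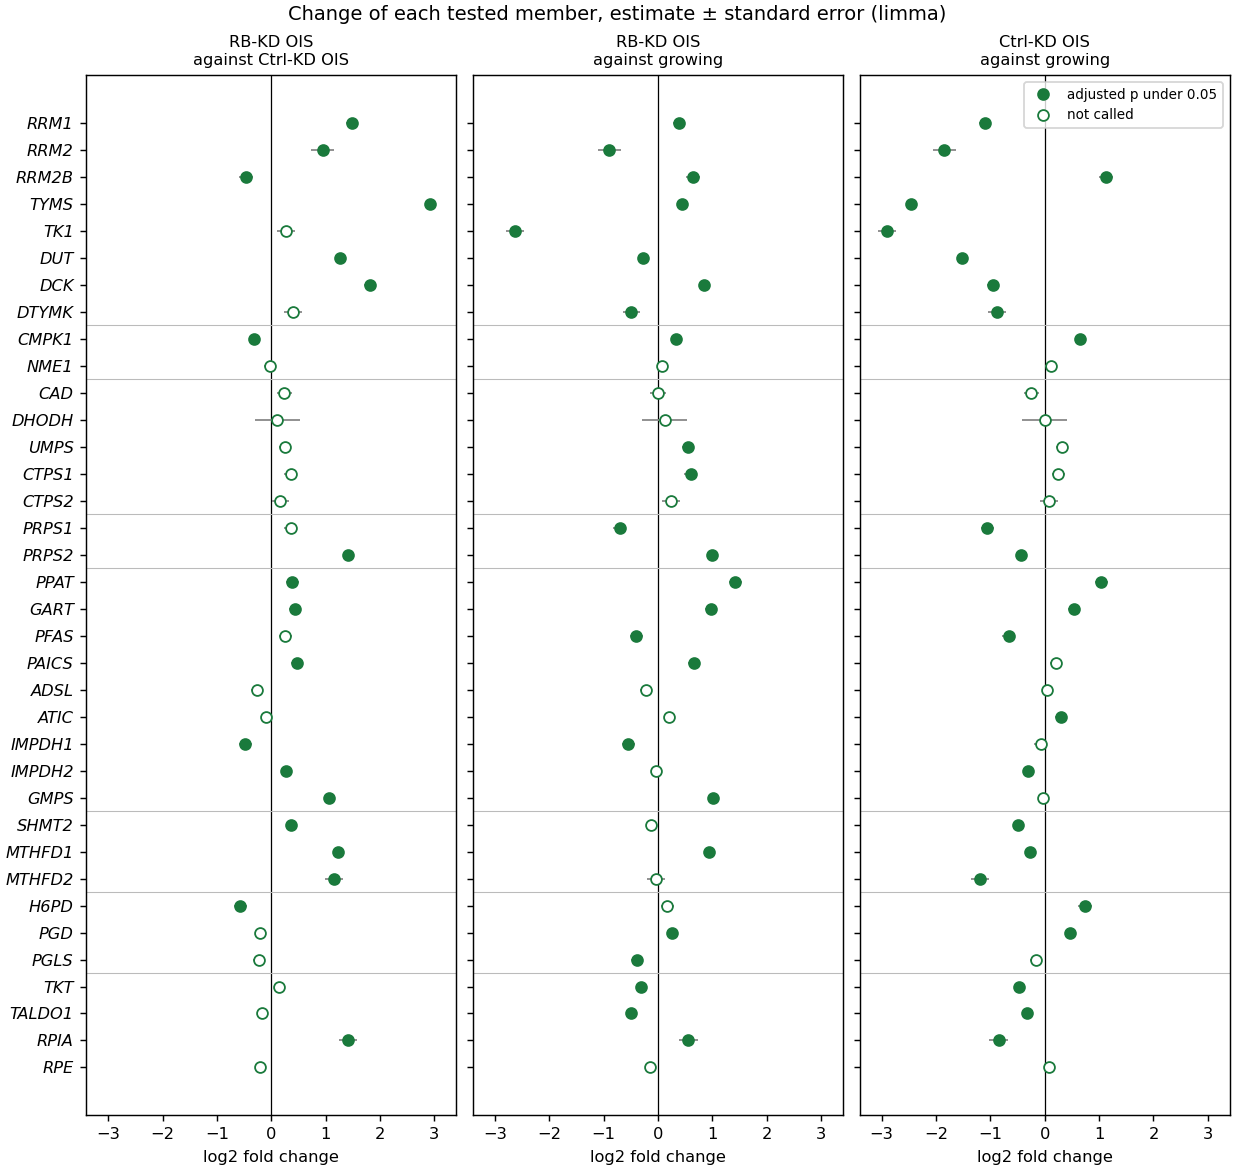
Log2 fold change (x axis) of the 36 tested members (rows, grouped by pathway) in RB-KD OIS against Ctrl-KD OIS, RB-KD OIS against growing and Ctrl-KD OIS relative to growing cells; whiskers are the standard error of the limma fit and filled points are called. TYMS lies farthest right between the OIS states (2.92) and TK1 farthest left in both comparisons with growing cells (-2.63 and -2.90).

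Deoxynucleotide synthesis held the largest changes. All 8 members were called in Ctrl-KD OIS relative to growing cells, 7 lower and 1 higher, where 41.7% of all tested genes were called in either direction, and their median was -1.32. Of the 8, 5 rose, 1 fell and 2 were not called between the OIS states, with a median of 1.11. Against growing cells, 4 members were higher and 4 lower in RB-KD OIS cells, with a median of 0.06, so the members ended on both sides of the growing level. Without growing replicate 1 or 2 these were 3 higher and 2 lower, and without RB-KD OIS replicate 1, 3 higher and 1 lower.

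Ribonucleotide reductase joins a large subunit, RRM1, to a small subunit, either the S-phase subunit RRM2 or RRM2B, which p53 is known to induce. RRM1 read 10406 and 10781 in RB-KD OIS cells, 3385.5 and 4246 in Ctrl-KD OIS cells and 8076 and 8188 in growing cells. The RB-KD OIS arrays were the highest, the Ctrl-KD OIS arrays the lowest, and no arrays of different states overlapped. The log2 fold change was 1.48 (SE 0.11, adjusted p = 3.48e-05) between the OIS states, 0.38 (SE 0.11, adjusted p = 0.0206) in RB-KD OIS against growing and -1.10 (SE 0.11, adjusted p = 4.21e-05) in Ctrl-KD OIS relative to growing cells. RRM1 lost its call in RB-KD OIS relative to growing cells when RB-KD OIS replicate 1 or 2 or growing replicate 1 or 2 was left out alone (adjusted p = 0.0649 to 0.105).

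RRM2 read 4782 and 5450.5 in RB-KD OIS cells, 1997 and 3482 in Ctrl-KD OIS cells and 9646 and 9351 in growing cells. Its order differed from that of RRM1, with the growing arrays highest and the RB-KD OIS arrays between the other states. The log2 fold change was 0.95 (SE 0.21, adjusted p = 0.0106) between the OIS states, -0.90 (SE 0.21, adjusted p = 0.00833) in RB-KD OIS against growing and -1.85 (SE 0.21, adjusted p = 0.000104) in Ctrl-KD OIS relative to growing cells. Without RB-KD OIS replicate 2 RRM2 was not called between the OIS states (adjusted p = 0.073). The RRM2 value was 0.55 (adjusted p = 0.00925) without Ctrl-KD OIS replicate 1. The RRM2 call in RB-KD OIS relative to growing cells was lost without RB-KD OIS replicate 1 (adjusted p = 0.0653). The Ctrl-KD OIS replicates were the farthest apart.

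RRM2B read 2645 and 2685 in RB-KD OIS cells, 4269.6 and 3175 in Ctrl-KD OIS cells and 1644 and 1756 in growing cells. The Ctrl-KD OIS arrays were highest and the growing arrays lowest, an order in which only RRM2B of the 8 stood. It was 1.12 (SE 0.13, adjusted p = 0.000145) in Ctrl-KD OIS relative to growing cells on the log2 scale and 0.65 (SE 0.13, adjusted p = 0.00432) in RB-KD OIS relative to growing cells. Between the OIS states the value was -0.47 (SE 0.13, adjusted p = 0.0326). RRM2B lost its call between the OIS states when RB-KD OIS replicate 1 or 2, Ctrl-KD OIS replicate 1 or growing replicate 1 or 2 was left out alone (adjusted p = 0.05 to 0.131). The RRM2B value was -0.25 (adjusted p = 0.121) without Ctrl-KD OIS replicate 1. The small subunits thus stood on opposite sides of the growing level in both OIS states: RRM2 lower and RRM2B higher.

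Thymidylate is made by TYMS, which methylates dUMP with a folate one-carbon unit, or salvaged from thymidine by the cytosolic kinase TK1. TYMS read 14502 and 15199 in RB-KD OIS cells, 1882 and 2053 in Ctrl-KD OIS cells and 10723 and 10966 in growing cells. Both RB-KD OIS arrays were above the growing arrays, and both Ctrl-KD OIS arrays were far below either. This was 7.55-fold higher in RB-KD OIS than in Ctrl-KD OIS cells, or a log2 fold change of 2.92 (SE 0.08, adjusted p = 6.82e-07). The change was 0.45 (SE 0.08, adjusted p = 0.00216) in RB-KD OIS against growing and -2.46 (SE 0.08, adjusted p = 7.44e-08) in Ctrl-KD OIS relative to growing cells. The 3 calls held in all fits that left out 1 array, and a second bright probe set gave 2.95, 0.59 and -2.36.

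TK1 read 254.5 and 309 in RB-KD OIS cells, 212 and 253 in Ctrl-KD OIS cells and 1739 and 1731 in growing cells. Both OIS states were low and only the growing arrays were high, the RB-KD OIS arrays lying just above the Ctrl-KD OIS arrays. The change was -2.63 (SE 0.16, adjusted p = 3.33e-06) in RB-KD OIS relative to growing cells, 6.19-fold lower, and -2.90 (SE 0.16, adjusted p = 1.36e-06) in Ctrl-KD OIS relative to growing cells, 7.49-fold lower. Between the OIS states it was 0.27 (SE 0.16, adjusted p = 0.26), which was not called. A second bright probe set gave 0.36, -3.05 and -3.41 in RB-KD OIS against Ctrl-KD OIS, RB-KD OIS against growing and Ctrl-KD OIS relative to growing cells. TYMS and TK1, which deliver the same product, thus stood on opposite sides of the growing level in RB-KD OIS cells, TYMS higher and TK1 lower.

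DUT, which hydrolyses dUTP to the dUMP that TYMS uses, read 8759.8 and 8962 in RB-KD OIS cells, 3661 and 3720.2 in Ctrl-KD OIS cells and 10640.4 and 10729.6 in growing cells. The RB-KD OIS arrays lay just under the growing arrays and well above the Ctrl-KD OIS arrays. The change was 1.26 (SE 0.07, adjusted p = 1.19e-05) between the OIS states, -0.27 (SE 0.07, adjusted p = 0.0187) in RB-KD OIS against growing and -1.53 (SE 0.07, adjusted p = 6.69e-07) in Ctrl-KD OIS relative to growing cells. DUT was not called in RB-KD OIS relative to growing cells without RB-KD OIS replicate 1 or 2 or growing replicate 1 or 2, each in turn (adjusted p = 0.0516 to 0.139). DCK, the salvage kinase for deoxycytidine, read 3808 and 3862 in RB-KD OIS cells, 1035 and 1159 in Ctrl-KD OIS cells and 2016 and 2249 in growing cells. It followed the order of TYMS, with RB-KD OIS highest and Ctrl-KD OIS lowest and no overlap. Its change was 1.81 (SE 0.10, adjusted p = 9.63e-06) between the OIS states, 0.85 (SE 0.10, adjusted p = 0.000205) in RB-KD OIS against growing and -0.96 (SE 0.10, adjusted p = 7.26e-05) in Ctrl-KD OIS relative to growing cells. DTYMK, which phosphorylates dTMP on the way to dTTP, was lower in both OIS states than in growing cells, by a log2 fold change of -0.49 (SE 0.16, adjusted p = 0.0435) in RB-KD OIS and -0.88 (SE 0.16, adjusted p = 0.00212) in Ctrl-KD OIS cells. On its brightest probe set the OIS arrays overlapped, and the difference between the OIS states was not called (log2 fold change 0.40, SE 0.16, adjusted p = 0.115). That difference was called with a replicate block (adjusted p = 0.0281) and with all probe sets averaged (1.15, adjusted p = 0.0492). It was 0.64 without Ctrl-KD OIS replicate 2, and the other bright probe sets of DTYMK gave 0.83 and 0.02. The DTYMK call in RB-KD OIS relative to growing cells was lost without RB-KD OIS replicate 1 or growing replicate 1 or 2, each left out alone (adjusted p = 0.117 to 0.257). The DTYMK value was -0.31 (adjusted p = 0.257) without RB-KD OIS replicate 1.

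**Figure D2:**
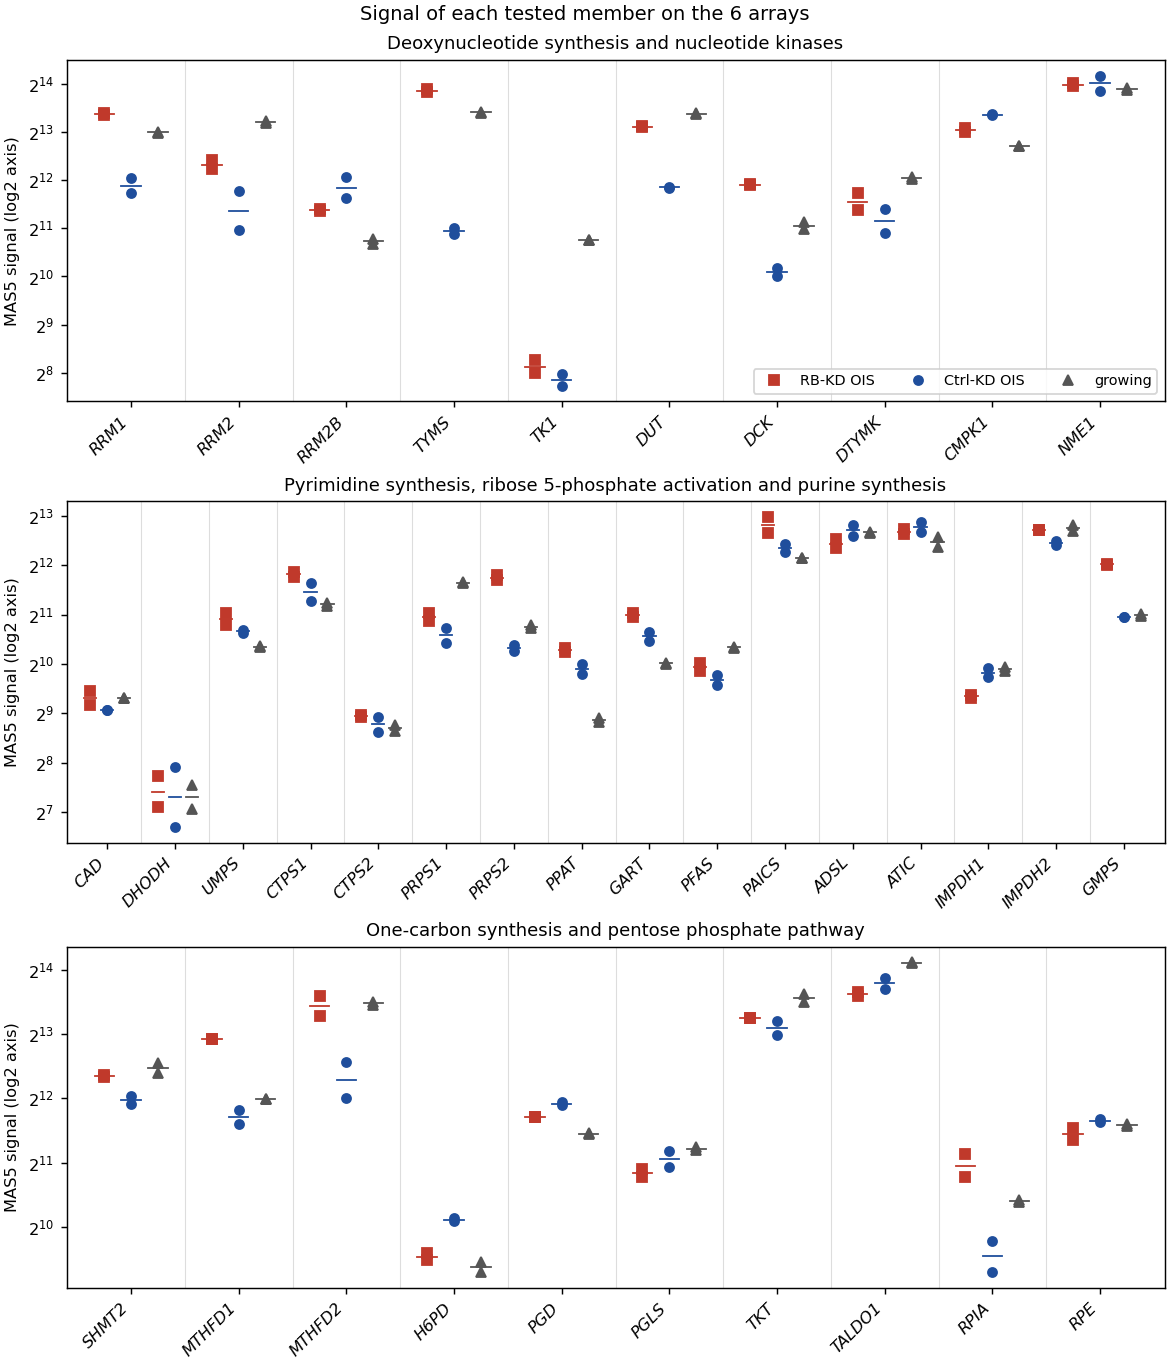
MAS5 signal (y axis, log2 scale) of each tested member on the 6 arrays; symbols are single arrays of RB-KD OIS, Ctrl-KD OIS and growing cells and the dashes are geometric means of 2 arrays. TYMS, DCK and RRM1 stand highest in RB-KD OIS cells, TK1 stands high only in growing cells, and RRM2B, CMPK1, H6PD and PGD stand highest in Ctrl-KD OIS cells.

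Of the kinases that phosphorylate nucleotides, CMPK1 was called in every comparison and NME1 in none. CMPK1, which phosphorylates CMP and UMP, read 8155 and 8667 in RB-KD OIS cells, 10567 and 10416 in Ctrl-KD OIS cells and 6691 and 6663.5 in growing cells. Ctrl-KD OIS cells were highest, growing cells lowest, and no arrays overlapped. The change was -0.32 (SE 0.08, adjusted p = 0.0154) between the OIS states, 0.33 (SE 0.08, adjusted p = 0.00756) in RB-KD OIS against growing and 0.65 (SE 0.08, adjusted p = 0.000127) in Ctrl-KD OIS relative to growing cells. CMPK1 lost its call between the OIS states when RB-KD OIS replicate 1 was left out (adjusted p = 0.0855). CMPK1 was not called in RB-KD OIS relative to growing cells without growing replicate 1 or 2, each in turn (adjusted p = 0.0684 to 0.0726). CMPK1 is in the study's table of metabolic genes, which was chosen on these arrays, so its direction is not independent evidence. NME1, a nucleoside diphosphate kinase, read 16573 and 15815 in RB-KD OIS cells, 14819 and 18434 in Ctrl-KD OIS cells and 15039.8 and 15519.7 in growing cells. The Ctrl-KD OIS arrays spanned both other states, and no comparison was called, with log2 fold changes of -0.03, 0.08 and 0.11 and a standard error of 0.10. Without Ctrl-KD OIS replicate 1, NME1 was called in Ctrl-KD OIS relative to growing cells (0.27, adjusted p = 0.0245).

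Of the 5 pyrimidine genes, none was called between the OIS states, where 24.2% of all tested genes were called in either direction, and none in Ctrl-KD OIS relative to growing cells. At an adjusted p under 0.05 limma thus called 0 of 5, with log2 fold changes between 0.11 and 0.36 in RB-KD OIS relative to Ctrl-KD OIS cells and between -0.25 and 0.31 in Ctrl-KD OIS relative to growing cells. At an unadjusted p under 0.05, 2 were higher between the OIS states and 1 in Ctrl-KD OIS relative to growing cells. CAD, which catalyses the first steps of the ring, read 573 and 699.7 in RB-KD OIS cells, 534 and 536 in Ctrl-KD OIS cells and 634 and 637 in growing cells. Its Ctrl-KD OIS arrays were lowest, but the RB-KD OIS arrays lay on both sides of the growing arrays. The changes were 0.24 (SE 0.14, adjusted p = 0.254), 0.00 (SE 0.14, adjusted p = 0.986) and -0.25 (SE 0.14, adjusted p = 0.195) in RB-KD OIS against Ctrl-KD OIS, RB-KD OIS against growing and Ctrl-KD OIS relative to growing cells. CTPS1 was called between the OIS states with median centring (0.37, adjusted p = 0.0427), filtering at percentile 70 (adjusted p = 0.0467) and the replicate block (adjusted p = 0.027). Its value there was 0.54 without Ctrl-KD OIS replicate 2.

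UMPS, which completes UMP, read 1768.5 and 2091 in RB-KD OIS cells, 1573 and 1659 in Ctrl-KD OIS cells and 1299.6 and 1314 in growing cells. The growing arrays were lowest and the RB-KD OIS arrays highest, without overlap, and only RB-KD OIS relative to growing cells was called (log2 fold change 0.56, SE 0.11, adjusted p = 0.00351). The other values were 0.25 (SE 0.11, adjusted p = 0.135) between the OIS states and 0.31 (SE 0.11, adjusted p = 0.0506) in Ctrl-KD OIS relative to growing cells. CTPS1, which aminates UTP to CTP, read 3474 and 3723 in RB-KD OIS cells, 2479.5 and 3183 in Ctrl-KD OIS cells and 2325 and 2414 in growing cells. It had the same order, with a call in RB-KD OIS relative to growing cells (log2 fold change 0.60, SE 0.12, adjusted p = 0.0039) and values of 0.36 (SE 0.12, adjusted p = 0.0624) between the OIS states and 0.25 (SE 0.12, adjusted p = 0.139) in Ctrl-KD OIS relative to growing cells. The UMPS call in RB-KD OIS relative to growing cells was lost when its probe sets were averaged (0.37, adjusted p = 0.0562 over the bright ones and 0.52, adjusted p = 0.0912 over all). In Ctrl-KD OIS relative to growing cells UMPS was called under 8 alternatives: quantile normalization, median centring, the added offset, the stricter filter, the fit of the 2 states alone, the replicate block, and without RB-KD OIS replicate 1 or 2 (0.30 to 0.40, adjusted p = 0.0207 to 0.049). In the same comparison CTPS1 was called with median centring (0.34, adjusted p = 0.0384), and its value was 0.43 without Ctrl-KD OIS replicate 1. DHODH, the mitochondrial enzyme of the ring, and CTPS2 were not called in any comparison on their brightest probe sets. The second bright probe set of CTPS2 gave 0.61 between the OIS states, -0.74 in RB-KD OIS and -1.36 in Ctrl-KD OIS relative to growing cells, and averaging both called CTPS2 lower in the last comparison (-0.64, adjusted p = 0.0124 with all probe sets of every gene averaged and 0.00499 with the bright ones, an alternative chosen after seeing the data). DHODH was dim, with signals between 103.8 and 240.7, and its standard error of 0.41 was the largest of the members.

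PRPP, the activated ribose that purine and pyrimidine synthesis share, is made by PRPS1 and PRPS2. PRPS1 read 1863 and 2086 in RB-KD OIS cells, 1383 and 1708 in Ctrl-KD OIS cells and 3179 and 3225 in growing cells. The growing arrays were highest and the Ctrl-KD OIS arrays lowest, with no overlap. The change was -0.70 (SE 0.12, adjusted p = 0.00155) in RB-KD OIS and -1.06 (SE 0.12, adjusted p = 0.0001) in Ctrl-KD OIS relative to growing cells, while that between the OIS states was not called (log2 fold change 0.36, SE 0.12, adjusted p = 0.0571). PRPS2 read 3324 and 3546 in RB-KD OIS cells, 1226 and 1335 in Ctrl-KD OIS cells and 1687.5 and 1757 in growing cells. Its RB-KD OIS arrays were above all others and its Ctrl-KD OIS arrays below all others. The change was 1.42 (SE 0.10, adjusted p = 2.31e-05) between the OIS states, 1.00 (SE 0.10, adjusted p = 5.37e-05) in RB-KD OIS against growing and -0.43 (SE 0.10, adjusted p = 0.00608) in Ctrl-KD OIS relative to growing cells. The PRPS2 call in Ctrl-KD OIS relative to growing cells was lost without growing replicate 2 (adjusted p = 0.0581). In RB-KD OIS cells the isoenzymes were thus called on opposite sides of the growing level, PRPS1 lower and PRPS2 higher. Between the OIS states PRPS1 was called too with median centring (0.38, adjusted p = 0.0422) and filtering at percentile 70 (adjusted p = 0.0422). The same held for the replicate block (adjusted p = 0.026) and for the bright probe sets averaged (adjusted p = 0.0346). Its value there was 0.51 without Ctrl-KD OIS replicate 2.

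Of the 9 purine genes, 5 rose and 1 fell in RB-KD OIS relative to Ctrl-KD OIS cells (55.6% and 11.1%, against 12.6% and 11.6% of all tested genes), and the median was 0.27. In RB-KD OIS relative to growing cells 4 were higher and 2 lower (44.4% and 22.2%, against 18.5% and 19.0%), and in Ctrl-KD OIS relative to growing cells 3 were higher and 2 lower (33.3% and 22.2%, against 20.5% and 21.2%). The shares of lower calls, and those of higher calls in the last comparison, were near the shares over all tested genes. With all probe sets of a gene averaged, the higher and lower purine calls numbered 2 and 1 between the OIS states, 2 and 3 in RB-KD OIS and 1 and 3 in Ctrl-KD OIS relative to growing cells. The calls between the OIS states depended on single arrays: without RB-KD OIS replicate 1 or 2, 2 and 1 purine genes were called higher and 0 lower, 2 higher and 2 lower without Ctrl-KD OIS replicate 1, 4 higher and 0 lower without Ctrl-KD OIS replicate 2, and 3 higher and 1 lower without growing replicate 1 or 2. In Ctrl-KD OIS relative to growing cells, leaving out growing replicate 1 or 2 gave 2 higher and 1 lower. In RB-KD OIS relative to growing cells 4 stayed higher in each such fit, and 1, 0 and 1 were lower without growing replicate 1, growing replicate 2 and RB-KD OIS replicate 2.

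PPAT, which commits PRPP to purine synthesis, read 1215 and 1278 in RB-KD OIS cells, 1018 and 893.5 in Ctrl-KD OIS cells and 478 and 452.5 in growing cells. The growing arrays were below every OIS array and the RB-KD OIS arrays were highest. The change was 1.42 (SE 0.12, adjusted p = 2.67e-05) in RB-KD OIS and 1.04 (SE 0.12, adjusted p = 0.000131) in Ctrl-KD OIS relative to growing cells. It was the largest rise of any member in RB-KD OIS relative to growing cells, and in Ctrl-KD OIS relative to growing cells it came after RRM2B. Between the OIS states it was 0.39 (SE 0.12, adjusted p = 0.0476). PPAT lost its call between the OIS states when RB-KD OIS replicate 1 or 2, Ctrl-KD OIS replicate 2 or growing replicate 1 or 2 was left out alone (adjusted p = 0.0778 to 0.177).

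GART, which carries several steps of the ring, read 1976 and 2093 in RB-KD OIS cells, 1414 and 1607 in Ctrl-KD OIS cells and 1027 and 1043.5 in growing cells on its brightest probe set. The 3 states did not overlap, with RB-KD OIS highest and growing lowest. The change was 0.43 (SE 0.11, adjusted p = 0.0172) between the OIS states, 0.97 (SE 0.11, adjusted p = 0.000107) in RB-KD OIS against growing and 0.54 (SE 0.11, adjusted p = 0.00274) in Ctrl-KD OIS relative to growing cells. GART was not called between the OIS states without RB-KD OIS replicate 1 or 2 or Ctrl-KD OIS replicate 1, each in turn (adjusted p = 0.0535 to 0.0826). The 4 other bright probe sets of GART disagreed: they gave 0.90, 0.40, 0.72 and -0.28 between the OIS states, -0.44, 0.86, -0.15 and 0.33 in RB-KD OIS relative to growing cells, and -1.34, 0.46, -0.87 and 0.61 in Ctrl-KD OIS relative to growing cells. The direction of GART thus changed with the probe set.

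GMPS, which turns XMP into GMP, read 4097 and 4180.1 in RB-KD OIS cells, 1974 and 1991 in Ctrl-KD OIS cells and 1999.9 and 2074 in growing cells. Only the RB-KD OIS arrays were high, at about the same level on both, and the Ctrl-KD OIS and growing arrays were close together. The change was 1.06 (SE 0.09, adjusted p = 6.29e-05) between the OIS states, 1.02 (SE 0.09, adjusted p = 2.28e-05) in RB-KD OIS against growing and -0.04 (SE 0.09, adjusted p = 0.753) in Ctrl-KD OIS relative to growing cells. The other bright probe sets of GMPS gave 1.16 and 0.44 between the OIS states but -0.05 and -0.05 in RB-KD OIS relative to growing cells and -1.20 and -0.49 in Ctrl-KD OIS relative to growing cells. Averaging the probe sets of GMPS ended its call in RB-KD OIS relative to growing cells (0.31, adjusted p = 0.0816 over the bright ones and 0.123 over all) and called it lower in Ctrl-KD OIS relative to growing cells (-0.58, adjusted p = 0.00558 and 0.0128). IMPDH1 and IMPDH2 supply its substrate from IMP. IMPDH1 was lower in RB-KD OIS cells, with log2 fold changes of -0.48 (SE 0.12, adjusted p = 0.021) against Ctrl-KD OIS and -0.55 (SE 0.12, adjusted p = 0.00659) against growing cells, while IMPDH2 gave 0.27 (SE 0.08, adjusted p = 0.0434) between the OIS states and -0.30 (SE 0.08, adjusted p = 0.0146) in Ctrl-KD OIS relative to growing cells. The IMPDH1 call between the OIS states was lost without RB-KD OIS replicate 1 or 2 or Ctrl-KD OIS replicate 2, each left out alone (adjusted p = 0.0562 to 0.0912). IMPDH1 lost its call in RB-KD OIS relative to growing cells when growing replicate 2 was left out (adjusted p = 0.0596). IMPDH2 was not called between the OIS states without RB-KD OIS replicate 1 or 2, Ctrl-KD OIS replicate 1 or growing replicate 1 or 2, each in turn (adjusted p = 0.0922 to 0.128). The IMPDH2 call in Ctrl-KD OIS relative to growing cells was lost without growing replicate 1 or 2, each left out alone (adjusted p = 0.0508 to 0.153).

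The remaining purine genes gave smaller values. PAICS, which carries middle steps of the ring, rose by 0.47 (SE 0.11, adjusted p = 0.0163) against Ctrl-KD OIS and 0.67 (SE 0.11, adjusted p = 0.0015) against growing cells in RB-KD OIS cells. PAICS lost its call between the OIS states when RB-KD OIS replicate 2 or Ctrl-KD OIS replicate 1 was left out alone (adjusted p = 0.0746 to 0.0882). The PAICS value was 0.31 (adjusted p = 0.0882) without RB-KD OIS replicate 2. PFAS, an amidotransferase of the ring, was -0.40 (SE 0.12, adjusted p = 0.028) in RB-KD OIS and -0.66 (SE 0.12, adjusted p = 0.00194) in Ctrl-KD OIS relative to growing cells. PFAS was not called in RB-KD OIS relative to growing cells without RB-KD OIS replicate 2 or growing replicate 1 or 2, each in turn (adjusted p = 0.112 to 0.14). ATIC, which closes the ring to IMP, was called in Ctrl-KD OIS relative to growing cells alone (log2 fold change 0.29, SE 0.10, adjusted p = 0.0465). The ATIC call in Ctrl-KD OIS relative to growing cells was lost without RB-KD OIS replicate 1 or 2, Ctrl-KD OIS replicate 2 or growing replicate 1 or 2, each left out alone (adjusted p = 0.0536 to 0.327). The ATIC value was 0.19 (adjusted p = 0.209) without Ctrl-KD OIS replicate 2. ADSL, the adenylosuccinate lyase, was called in none, with log2 fold changes of -0.27, -0.23 and 0.04, and without Ctrl-KD OIS replicate 1 it was called between the OIS states (-0.38, adjusted p = 0.0335).

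All 3 tested one-carbon genes rose in RB-KD OIS relative to Ctrl-KD OIS cells, where 12.6% of all tested genes rose, and their median was 1.15. In Ctrl-KD OIS relative to growing cells, where 21.2% of all tested genes fell, all 3 fell, with a median of -0.50. With all probe sets of a gene averaged, 1 of the 3 was called higher between the OIS states (median 0.25), and with the bright ones averaged 2 were (median 0.68). MTHFD1, the cytosolic enzyme that prepares folate one-carbon units for purines and thymidylate, read 7786 and 7796 in RB-KD OIS cells, 3121.5 and 3604 in Ctrl-KD OIS cells and 4083 and 4052.5 in growing cells. Both RB-KD OIS arrays were far above the other states, and the Ctrl-KD OIS arrays lowest. The change was 1.22 (SE 0.09, adjusted p = 4.15e-05) between the OIS states, 0.94 (SE 0.09, adjusted p = 5.56e-05) in RB-KD OIS against growing and -0.28 (SE 0.09, adjusted p = 0.0355) in Ctrl-KD OIS relative to growing cells. MTHFD1 lost its call in Ctrl-KD OIS relative to growing cells when RB-KD OIS replicate 1 or 2, Ctrl-KD OIS replicate 1 or growing replicate 1 or 2 was left out alone (adjusted p = 0.0507 to 0.164). The MTHFD1 value was -0.17 (adjusted p = 0.138) without Ctrl-KD OIS replicate 1. Averaging MTHFD1 over all its probe sets, the other of which was dim, turned the direction to -0.15 between the OIS states and -0.65 in RB-KD OIS relative to growing cells.

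MTHFD2, the mitochondrial dehydrogenase, read 12304 and 9949 in RB-KD OIS cells, 6080.3 and 4110.3 in Ctrl-KD OIS cells and 11174.5 and 11598 in growing cells. The RB-KD OIS arrays lay on both sides of the growing arrays and the Ctrl-KD OIS arrays below all of them. The change was 1.15 (SE 0.17, adjusted p = 0.00147) between the OIS states and -1.19 (SE 0.17, adjusted p = 0.00043) in Ctrl-KD OIS relative to growing cells, and -0.04 (SE 0.17, adjusted p = 0.876) in RB-KD OIS relative to growing cells, which was not called. The second, much dimmer probe set of MTHFD2 gave 0.21 between the OIS states, -0.58 in Ctrl-KD OIS and -0.37 in RB-KD OIS relative to growing cells. SHMT2, which takes the one-carbon unit from serine in mitochondria, read 5141 and 5262 in RB-KD OIS cells, 3857 and 4183 in Ctrl-KD OIS cells and 5990.1 and 5368 in growing cells. Its RB-KD OIS arrays were between the Ctrl-KD OIS and growing arrays. The change was 0.37 (SE 0.09, adjusted p = 0.0163) between the OIS states, -0.50 (SE 0.09, adjusted p = 0.00182) in Ctrl-KD OIS relative to growing cells and -0.12 (SE 0.09, adjusted p = 0.315) in RB-KD OIS relative to growing cells. SHMT2 was not called between the OIS states without RB-KD OIS replicate 1 or 2 or Ctrl-KD OIS replicate 1, each in turn (adjusted p = 0.0579 to 0.0712). Averaging its probe sets also ended that call (0.25, adjusted p = 0.0667 over the bright ones and 0.0975 over all). SHMT1 and MTHFD1L were not tested: their brightest probe sets naming 1 gene read 4.6 to 50.8 and 15.9 to 57.7, around or under the array medians of 46 to 51.8. Their brighter probe sets also name other genes (2 names for SHMT1, 3 for MTHFD1L) and cannot be given to 1 gene. Between the OIS states these gave 1.71 for 1 of the SHMT1 probe sets and 0.08 and -0.46 for MTHFD1L. The other SHMT1 probe set read 230.6 and 271.7 in RB-KD OIS cells and 31.5 and 8.0 in Ctrl-KD OIS cells. Its Ctrl-KD OIS signals were under the array medians, so no fold is given.

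Of the oxidative pentose phosphate genes, which make NADPH on the way to ribulose 5-phosphate, H6PD and PGD stood highest in Ctrl-KD OIS cells. H6PD, the enzyme of the endoplasmic reticulum lumen, read 716 and 774 in RB-KD OIS cells, 1124 and 1088 in Ctrl-KD OIS cells and 699 and 627.5 in growing cells. The Ctrl-KD OIS arrays were above all others, and RB-KD OIS and growing arrays were close. The change was -0.57 (SE 0.12, adjusted p = 0.00862) between the OIS states, 0.74 (SE 0.12, adjusted p = 0.00097) in Ctrl-KD OIS relative to growing cells and 0.17 (SE 0.12, adjusted p = 0.311) in RB-KD OIS relative to growing cells. The H6PD call between the OIS states was lost without RB-KD OIS replicate 1 (adjusted p = 0.0548). The second bright probe set of H6PD was flat, at -0.08, -0.03 and -0.11 in the same order. PGD, the 6-phosphogluconate dehydrogenase, read 3365 and 3335 in RB-KD OIS cells, 3935 and 3800.1 in Ctrl-KD OIS cells and 2808 and 2799 in growing cells. The 3 states did not overlap, with Ctrl-KD OIS highest and growing lowest. The change was 0.46 (SE 0.08, adjusted p = 0.00154) in Ctrl-KD OIS and 0.26 (SE 0.08, adjusted p = 0.0338) in RB-KD OIS relative to growing cells, and -0.21 (SE 0.08, adjusted p = 0.0992) between the OIS states, which was not called. PGD lost its call in RB-KD OIS relative to growing cells when RB-KD OIS replicate 1 or 2 or growing replicate 1 or 2 was left out alone (adjusted p = 0.0887 to 0.173). H6PD and PGD are in the study's table of metabolic genes, which was chosen on these arrays. The study also measured H6PD by RT-PCR, a second way to read its RNA, in these states. Those values were not used here.

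PGLS, the lactonase between these steps, read 1754 and 1918 in RB-KD OIS cells, 1954 and 2332 in Ctrl-KD OIS cells and 2341 and 2421 in growing cells. Relative to growing cells it went the other way from H6PD and PGD, with the RB-KD OIS arrays lowest and the growing arrays highest. Between the OIS states its RB-KD OIS arrays were below the Ctrl-KD OIS arrays, like those of H6PD and PGD. The change was -0.38 (SE 0.11, adjusted p = 0.0245) in RB-KD OIS relative to growing cells, -0.16 (SE 0.11, adjusted p = 0.294) in Ctrl-KD OIS relative to growing cells and -0.22 (SE 0.11, adjusted p = 0.194) between the OIS states, and only the first was called. PGLS was not called in RB-KD OIS relative to growing cells without RB-KD OIS replicate 1 or growing replicate 1 or 2, each in turn (adjusted p = 0.0907 to 0.134). Of the 3 other bright probe sets of PGLS, 1 gave 0.29 in RB-KD OIS relative to growing cells, the opposite sign.

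Of the nonoxidative genes, which shuttle sugar phosphates between ribose 5-phosphate and glycolysis, RPIA alone was called between the OIS states. RPIA, the isomerase that makes ribose 5-phosphate from ribulose 5-phosphate, read 1754 and 2245 in RB-KD OIS cells, 631.5 and 882 in Ctrl-KD OIS cells and 1364 and 1335 in growing cells. The RB-KD OIS arrays were highest and the Ctrl-KD OIS arrays lowest, without overlap. It was 2.66-fold higher in RB-KD OIS than in Ctrl-KD OIS cells (log2 fold change 1.41, SE 0.17, adjusted p = 0.000564), 0.56 (SE 0.17, adjusted p = 0.0303) in RB-KD OIS against growing and -0.85 (SE 0.17, adjusted p = 0.00334) in Ctrl-KD OIS relative to growing cells on the log2 scale. The RPIA call in RB-KD OIS relative to growing cells was lost without RB-KD OIS replicate 2 or growing replicate 1 or 2, each left out alone (adjusted p = 0.0946 to 0.198).

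TKT, the transketolase, read 9709 and 9704 in RB-KD OIS cells, 8059 and 9445 in Ctrl-KD OIS cells and 11597.5 and 12626 in growing cells. Both OIS states were below growing cells. The change was -0.32 (SE 0.09, adjusted p = 0.0258) in RB-KD OIS and -0.47 (SE 0.09, adjusted p = 0.00328) in Ctrl-KD OIS relative to growing cells, and 0.15 (SE 0.09, adjusted p = 0.284) between the OIS states. TKT lost its call in RB-KD OIS relative to growing cells when RB-KD OIS replicate 1 or 2 or growing replicate 1 or 2 was left out alone (adjusted p = 0.0656 to 0.2). TALDO1, the transaldolase, read 12820 and 12382 in RB-KD OIS cells, 13331 and 15047.5 in Ctrl-KD OIS cells and 17759.7 and 17624.5 in growing cells. It was also lower in both OIS states, with -0.49 (SE 0.08, adjusted p = 0.0015) in RB-KD OIS and -0.32 (SE 0.08, adjusted p = 0.0123) in Ctrl-KD OIS cells against growing cells, with -0.17 (SE 0.08, adjusted p = 0.181) between the OIS states. TALDO1 was not called in Ctrl-KD OIS relative to growing cells without growing replicate 1 or 2, each in turn (adjusted p = 0.0824 to 0.0929). Without Ctrl-KD OIS replicate 1 TALDO1 was called between the OIS states (-0.26, adjusted p = 0.0437). RPE, the epimerase, was called in no comparison, with log2 fold changes of -0.21, -0.14 and 0.07.

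The members were set beside the 16 MCM helicase and origin licensing genes, which load and fire replication origins. Of these, 15 of 16 rose between the OIS states and none fell (15 and 0 at an unadjusted p under 0.05). Over all tested genes 12.6% rose and 11.6% fell. The median of the list was 2.00, against 5 of 8 risen and a median of 1.11 for deoxynucleotide synthesis. In Ctrl-KD OIS relative to growing cells all 16 fell, with a median of -1.91, against 7 of 8 and -1.32, and 21.2% of all tested genes fell there. In RB-KD OIS relative to growing cells 5 rose and 1 fell, with a median of 0.33, and 8 rose and 3 fell when Ctrl-KD OIS replicate 1 or 2 was left out. The 5 and 1 were 31.2% and 6.25% of the list, against 18.5% and 19.0% of all tested genes. CDC6, a loader of the helicase, read 1217 and 1371 in RB-KD OIS cells, 116.5 and 154 in Ctrl-KD OIS cells and 726 and 617 in growing cells. This was 3.27 (SE 0.18, adjusted p = 8.05e-06) between the OIS states on the log2 scale, 0.95 (SE 0.18, adjusted p = 0.0026) in RB-KD OIS against growing and -2.32 (SE 0.18, adjusted p = 9.54e-06) in Ctrl-KD OIS relative to growing cells. MCM3, MCM6 and MCM2 rose by 3.20, 3.13 and 2.97 between the OIS states. An E2F-type word stood in 10 of the 13 MCM and licensing genes with a promoter window. No test was made of the difference between this list and the members.

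**Figure D3:**
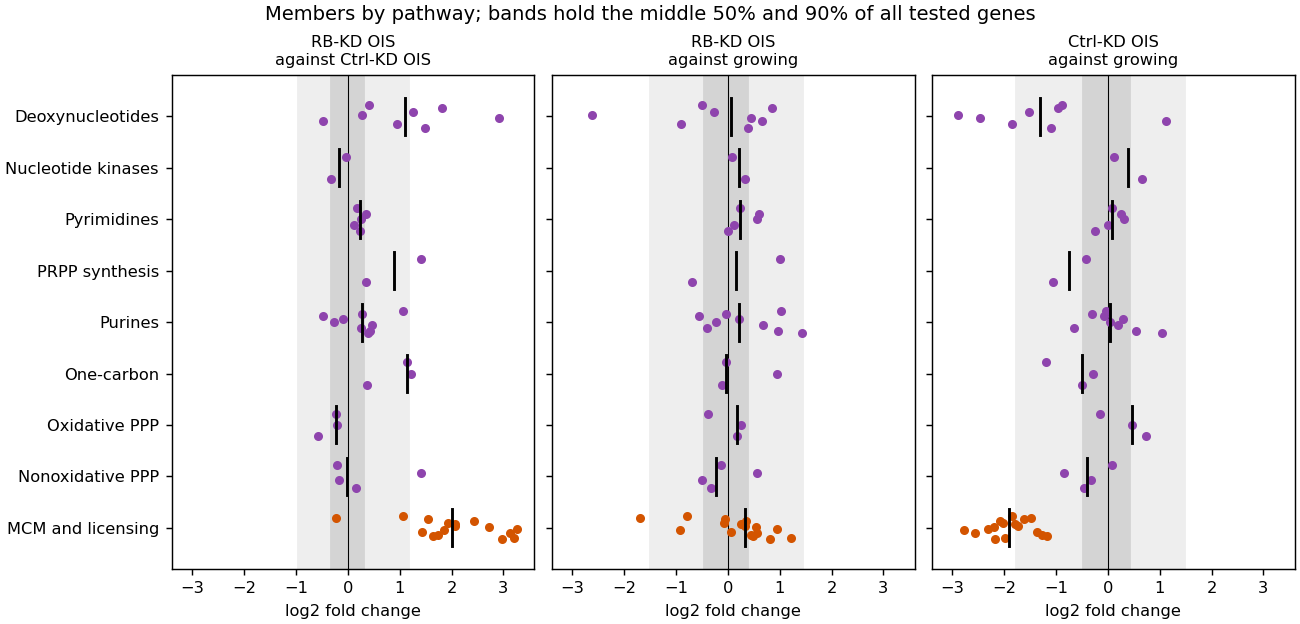
Log2 fold change (x axis) of the tested members by pathway and of the MCM and licensing genes (rows) in the 3 comparisons; points are genes, black bars are medians, and the dark and light bands hold the middle 50% and 90% of all tested genes. The deoxynucleotide median lies at 1.11 between the OIS states and at -1.32 in Ctrl-KD OIS relative to growing cells, while the pyrimidine median stays at 0.24, 0.24 and 0.08.

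More than 1 probe set was above the array median on all 6 arrays for 22 members, which gives a second reading of the same RNA. Of the called members among them, all bright probe sets had the same sign in 12 of 13 between the OIS states, in 13 of 16 in RB-KD OIS relative to growing cells and in 13 of 15 in Ctrl-KD OIS relative to growing cells. GART was the exception in all 3 comparisons, joined by GMPS and PGLS in RB-KD OIS relative to growing cells and by H6PD in Ctrl-KD OIS relative to growing cells. RRM1, RRM2, PRPS1, PRPS2, PAICS, PPAT and DUT kept their sign in each comparison that was called. Probe sets share the RNA of the array and are not replicates.

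**Figure D4:**
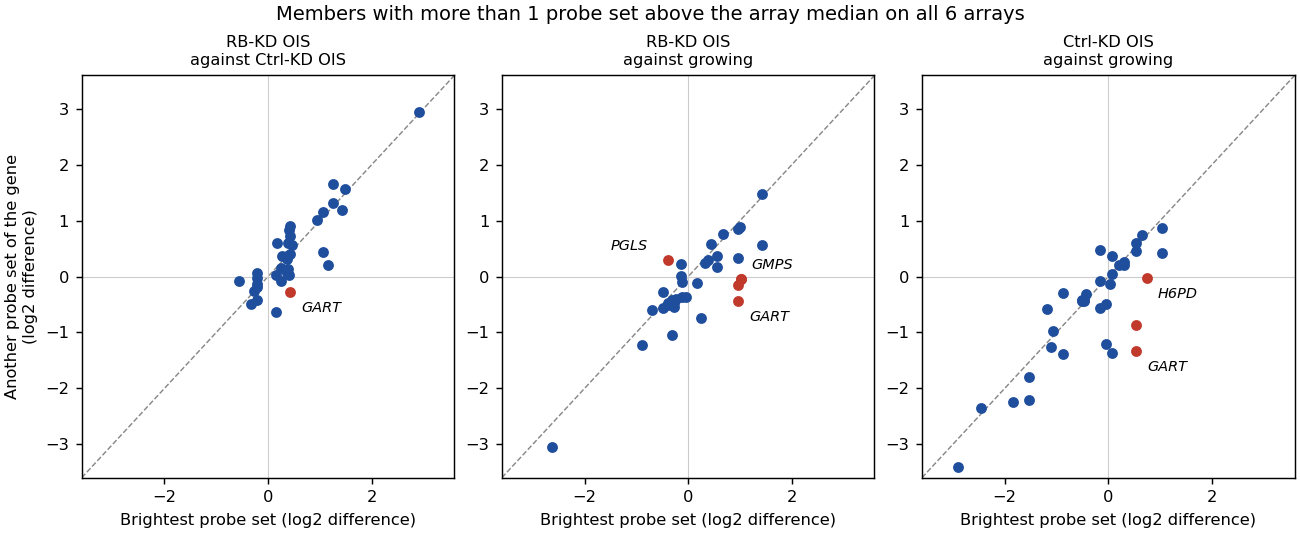
Log2 difference between states of the brightest probe set (x axis) and of each other bright probe set of the same member (y axis) in the 3 comparisons; the dashed line marks equal values, and red points are probe sets that oppose a call. GART, GMPS, PGLS and H6PD hold the red points, and TYMS lies near the line at 2.92 and 2.95 between the OIS states.

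Genes around these pathways that are not members were read from 5 lists with 66 genes, 53 of them tested. Of those tested, 6 rose and 12 fell between the OIS states (11.3% and 22.6%, against 12.6% and 11.6% of all tested genes). In RB-KD OIS relative to growing cells 14 were higher and 11 lower (26.4% and 20.8%, against 18.5% and 19.0%), and in Ctrl-KD OIS relative to growing cells 17 were higher and 9 lower (32.1% and 17.0%, against 20.5% and 21.2%). The share of rises between the OIS states and both shares of lower calls relative to growing cells were thus near those of all tested genes. The folate and serine list held 3 of the 6 rises between the OIS states and no fall. These were 20.0% and 0.0% of its 15 tested genes, against 12.6% and 11.6% of all tested genes. Its median was -0.05. PHGDH, which starts serine synthesis, read 1037 and 838 in RB-KD OIS cells, 294 and 280 in Ctrl-KD OIS cells and 2282 and 2386 in growing cells. The growing arrays were highest and the Ctrl-KD OIS arrays lowest, with a change of 1.70 (SE 0.13, adjusted p = 5.25e-05) between the OIS states, -1.32 (SE 0.13, adjusted p = 6.69e-05) in RB-KD OIS against growing and -3.02 (SE 0.13, adjusted p = 3.77e-07) in Ctrl-KD OIS relative to growing cells. PSAT1, the next enzyme, had the same order, with 1.57 (SE 0.14, adjusted p = 0.00012), -1.07 (SE 0.14, adjusted p = 0.000379) and -2.64 (SE 0.14, adjusted p = 1.21e-06) in these comparisons. MTHFD2L, a paralog of MTHFD2, read 1643.5 and 2566 in RB-KD OIS cells, 1886 and 2394 in Ctrl-KD OIS cells and 436 and 451 in growing cells. It was high in both OIS states, with 2.21 (SE 0.20, adjusted p = 3.54e-05) in RB-KD OIS and 2.26 (SE 0.20, adjusted p = 2.15e-05) in Ctrl-KD OIS relative to growing cells. Over all probe sets of MTHFD2L the values were 0.68 (adjusted p = 0.282) and 1.31 (adjusted p = 0.0525). GLDC, of the glycine cleavage system, read 269 and 307 in RB-KD OIS cells, 300.3 and 253 in Ctrl-KD OIS cells and 47.0 and 39.3 in growing cells, so that its growing arrays were under their array medians and no fold is given.

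In nucleoside and base salvage none of 12 tested genes rose and 5 fell (1 and 5 at an unadjusted p under 0.05) in RB-KD OIS relative to Ctrl-KD OIS cells, and 6 rose and none fell (6 and 1 unadjusted) in Ctrl-KD OIS relative to growing cells. Among all tested genes 12.6% rose and 11.6% fell in the first comparison, and 20.5% rose and 21.2% fell in the second. The 5 falls became 3, 2, 1 and 3 without Ctrl-KD OIS replicate 1, Ctrl-KD OIS replicate 2, RB-KD OIS replicate 1 and RB-KD OIS replicate 2. PNP, the purine nucleoside phosphorylase, read 2525 and 3202 in RB-KD OIS cells, 3941 and 4189.9 in Ctrl-KD OIS cells and 623 and 572 in growing cells. Both OIS states were far above growing cells, by 2.25 (SE 0.13, adjusted p = 1.92e-06) in RB-KD OIS and 2.77 (SE 0.13, adjusted p = 4.35e-07) in Ctrl-KD OIS cells on the log2 scale, and RB-KD OIS differed from Ctrl-KD OIS cells by -0.52 (SE 0.13, adjusted p = 0.0168). The PNP call between the OIS states was lost without RB-KD OIS replicate 1 or Ctrl-KD OIS replicate 2, each left out alone (adjusted p = 0.0776 to 0.103). The PNP value was -0.34 (adjusted p = 0.103) without RB-KD OIS replicate 1. UPP1, the uridine phosphorylase, gave 0.77 (SE 0.17, adjusted p = 0.00645) in RB-KD OIS and 1.46 (SE 0.17, adjusted p = 0.000126) in Ctrl-KD OIS relative to growing cells and -0.69 (SE 0.17, adjusted p = 0.0175) between the OIS states. UPP1 lost its call between the OIS states when RB-KD OIS replicate 1 or Ctrl-KD OIS replicate 2 was left out alone (adjusted p = 0.101 to 0.124). UPP1 was not called in RB-KD OIS relative to growing cells without RB-KD OIS replicate 2 or growing replicate 2, each in turn (adjusted p = 0.0506 to 0.0585). TK2, the mitochondrial thymidine kinase, was lower in RB-KD OIS than in growing cells (log2 fold change -1.07, SE 0.17, adjusted p = 0.00119) and than in Ctrl-KD OIS cells (log2 fold change -0.60, SE 0.17, adjusted p = 0.0358). The TK2 call between the OIS states was lost without RB-KD OIS replicate 1 or 2 or Ctrl-KD OIS replicate 1, each left out alone (adjusted p = 0.0717 to 0.178). The TK2 value was -0.38 (adjusted p = 0.178) without Ctrl-KD OIS replicate 1. ADA, the adenosine deaminase, was higher in RB-KD OIS (log2 fold change 0.98, SE 0.21, adjusted p = 0.00496) and Ctrl-KD OIS (log2 fold change 0.71, SE 0.21, adjusted p = 0.0213) than in growing cells. ADA lost its call in Ctrl-KD OIS relative to growing cells when Ctrl-KD OIS replicate 1 or growing replicate 1 was left out alone (adjusted p = 0.109 to 0.164). The ADA value was 0.44 (adjusted p = 0.164) without growing replicate 1.

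In nucleotide breakdown, AMPD3, an AMP deaminase, read 6813 and 6089 in RB-KD OIS cells, 9078 and 8228 in Ctrl-KD OIS cells and 739 and 746 in growing cells. Every OIS array was far above the growing arrays, with 3.12 (SE 0.09, adjusted p = 7.04e-08) in RB-KD OIS and 3.54 (SE 0.09, adjusted p = 2.37e-08) in Ctrl-KD OIS relative to growing cells and -0.42 (SE 0.09, adjusted p = 0.0116) between the OIS states. AMPD3 was not called between the OIS states without RB-KD OIS replicate 2 or Ctrl-KD OIS replicate 1, each in turn (adjusted p = 0.0519 to 0.0717). NT5E, the ectonucleotidase, was higher by 1.07 (SE 0.08, adjusted p = 8.78e-06) in RB-KD OIS and 0.87 (SE 0.08, adjusted p = 2.16e-05) in Ctrl-KD OIS relative to growing cells. NUDT1, which removes oxidized purine nucleotides, was lower, with -1.02 (SE 0.23, adjusted p = 0.0072) and -1.50 (SE 0.23, adjusted p = 0.000702) in the same comparisons. The NUDT1 call in RB-KD OIS relative to growing cells was lost without growing replicate 1 (adjusted p = 0.0636). XDH, the xanthine oxidase gene, was called in Ctrl-KD OIS relative to growing cells alone (log2 fold change 1.36, SE 0.30, adjusted p = 0.00515).

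Among purine interconversion genes and kinases none of 10 tested genes rose and 4 fell (2 and 6 at an unadjusted p under 0.05) between the OIS states, and 1, 0 and 2 fell without Ctrl-KD OIS replicate 2, RB-KD OIS replicate 1 and RB-KD OIS replicate 2. With all arrays, the rises and falls were 0.0% and 40.0% of this list, against 12.6% and 11.6% of all tested genes. AK4, a mitochondrial adenylate kinase, read 251 and 225 in RB-KD OIS cells, 929 and 446 in Ctrl-KD OIS cells and 88.2 and 92.4 in growing cells. The Ctrl-KD OIS arrays were highest but far apart, with -1.44 (SE 0.31, adjusted p = 0.0103) between the OIS states, 1.40 (SE 0.31, adjusted p = 0.00674) in RB-KD OIS against growing and 2.83 (SE 0.31, adjusted p = 8.99e-05) in Ctrl-KD OIS relative to growing cells. AK4 lost its call between the OIS states when RB-KD OIS replicate 1 or 2 was left out alone (adjusted p = 0.0501 to 0.0605). The AK4 value was -0.91 (adjusted p = 0.0492) without Ctrl-KD OIS replicate 1. GMPR, the GMP reductase, was -1.07 (SE 0.26, adjusted p = 0.00982) in RB-KD OIS and -0.91 (SE 0.26, adjusted p = 0.0194) in Ctrl-KD OIS relative to growing cells. GMPR was not called in RB-KD OIS relative to growing cells without RB-KD OIS replicate 1 or growing replicate 2, each in turn (adjusted p = 0.0527 to 0.0558). The GMPR call in Ctrl-KD OIS relative to growing cells was lost without Ctrl-KD OIS replicate 2 or growing replicate 1 or 2, each left out alone (adjusted p = 0.0757 to 0.0979). The GMPR value was -0.56 (adjusted p = 0.0979) without Ctrl-KD OIS replicate 2. Of the further pentose phosphate genes, DERA, the deoxyribose phosphate aldolase, read 3684.5 and 3875 in RB-KD OIS cells, 1843 and 1833 in Ctrl-KD OIS cells and 3896 and 3689 in growing cells. The Ctrl-KD OIS arrays were lowest and the other states overlapped, with 1.04 (SE 0.09, adjusted p = 6.87e-05) between the OIS states and -1.04 (SE 0.09, adjusted p = 1.41e-05) in Ctrl-KD OIS relative to growing cells. Smaller values came from AK6, with -0.36 (SE 0.10, adjusted p = 0.0241) between the OIS states and 0.59 (SE 0.10, adjusted p = 0.00105) in Ctrl-KD OIS relative to growing cells, from NME3, a nucleoside diphosphate kinase, with -0.54 (SE 0.13, adjusted p = 0.0174) between the OIS states, and from the dim IDNK, a gluconokinase, with -0.97 (SE 0.34, adjusted p = 0.0499) in RB-KD OIS and -1.47 (SE 0.34, adjusted p = 0.00703) in Ctrl-KD OIS relative to growing cells. AK6 lost its call between the OIS states when RB-KD OIS replicate 1 or 2 or Ctrl-KD OIS replicate 2 was left out alone (adjusted p = 0.0707 to 0.108). NME3 was not called between the OIS states without RB-KD OIS replicate 1 or Ctrl-KD OIS replicate 2, each in turn (adjusted p = 0.0848 to 0.103). The IDNK call in RB-KD OIS relative to growing cells was lost without RB-KD OIS replicate 1 or 2 or growing replicate 1 or 2, each left out alone (adjusted p = 0.0726 to 0.223). IDNK lost its call in Ctrl-KD OIS relative to growing cells when growing replicate 2 was left out (adjusted p = 0.0574).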

How the data were processed

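RNA from 6 samples of IMR90 ER:Ras cells was measured, with 2 biological replicates per state, and samples were grouped by their labels. The platform was the Affymetrix U133 Plus 2.0 array, and the submitters' processing notes name MAS5 and Affymetrix Expression Console, whose versions are not given in the sources used here. The deposited values are linear intensity signals for 54613 probe sets. Their 2% trimmed mean was 496.2 to 496.5 on every array. The number of arrays limits the precision.

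The log2 of each signal was used, with nothing added and no normalization beyond the authors'. In the platform table used here 41091 probe sets name 1 gene, 1801 several and 11721 none. Each gene was read from its brightest probe set naming it alone (19775 genes), and 13398 genes were tested, those that exceeded the median of the array on 2 or more of the 6. A mean per state was fitted over all 6 arrays in R 4.3.3 with limma 3.58.1, with the prior variance allowed to depend on signal. Calls were made at a Benjamini-Hochberg adjusted p under 0.05 over all tested genes. The fit was tested on simulated data, in which 200 of 13398 genes had a known change. It recovered, for 1.5-, 2- and 4-fold changes, 57.6%, 71% and 86.2% between the OIS states (10 false calls), 55.2%, 75.5% and 92.5% in RB-KD OIS relative to growing cells (10), and 54.7%, 70.4% and 88.9% in Ctrl-KD OIS relative to growing cells (8). The simulated noise was normal with 1 spread per signal level, and in the data 3238 to 5586 genes were called. These rates thus check the code and do not give the recovery or false calls on these arrays.

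Values per array are given for members called with an absolute log2 fold change of at least 1 and arrays that do not overlap, for up to 3 members in each pathway with fewer such genes, and for H6PD. Of the other lists, up to 4 called genes are named. The members, lists and rules were chosen with earlier results of these data known. Further genes of the pathways were left out by choice. The fold changes and gene choices of the study's own tables were not used as values. Results were recomputed with quantile-normalized or median-centred arrays, with 12.5 (percentile 25 of the signals) added, unfiltered or filtered at percentile 70, with all or all bright probe sets averaged, without a trend in the prior variance, with only the 2 states compared, with a replicate block, and with each array left out.

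Replicate numbers were checked for pairing. The deviations of same-numbered arrays correlated at 0.04 between the OIS states, 0.01 between RB-KD OIS and growing cells and 0.00 between Ctrl-KD OIS and growing cells, so the numbers were not taken to pair samples. Promoter windows come from the RefSeq tables (GRCh38.p14) and were searched for fixed words on both strands.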

Additional observations from a re-analysis of the deposited data

How the results depend on the processing

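Calls of members that held under all 16 alternatives numbered 8 of 19 between the OIS states, 10 of 25 in RB-KD OIS relative to growing cells and 16 of 24 in Ctrl-KD OIS relative to growing cells. Between the OIS states 15 members were higher and 4 lower. Without a trend in the prior variance these were 9 and 1, averaging all probe sets left 2 lower, and leaving out single arrays gave 9 to 17 higher and 0 to 5 lower. For RB-KD OIS relative to growing cells (15 higher, 10 lower) averaging all probe sets gave 7 higher, median centring 5 lower and no trend 4 lower, and leaving out single arrays gave 11 to 15 higher and 4 to 10 lower. In Ctrl-KD OIS relative to growing cells (7 higher, 17 lower) averaging all probe sets gave 3 higher, and leaving out single arrays gave 6 to 9 higher and 13 to 17 lower. The cause of these shifts was not tested.

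Over all tested genes, 1682 rose and 1556 fell between the OIS states, but averaging all probe sets gave 874 and 775, with 940 and 641 without the trend, and 1070 and 859 without RB-KD OIS replicate 1. In RB-KD OIS relative to growing cells 2481 rose and 2552 fell, but median centring gave 3097 and 1984 and averaging probe sets 1453 and 1586. In Ctrl-KD OIS relative to growing cells 2746 rose and 2840 fell, but median centring gave 3219 and 2367 and averaging probe sets 1730 and 1854. The replicate block gave 18 members higher and 5 lower between the OIS states, 15 and 10 in RB-KD OIS relative to growing cells and 8 and 17 in Ctrl-KD OIS relative to growing cells, and ended no call of a member.

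Averaging all probe sets, dim ones included, turned the direction of some genes: GART to -0.34 between the OIS states and -0.08 in RB-KD OIS relative to growing cells, MTHFD1 to -0.15 and -0.65 in these comparisons, H6PD to 0.15 between the OIS states and -0.06 in Ctrl-KD OIS relative to growing cells, and PGD to -0.45 in the last. The mean of the bright probe sets, an alternative chosen after seeing the data, turned GART to -0.12 in Ctrl-KD OIS relative to growing cells. A state left with 1 array was assumed to vary like the others. Signal over background limits DHODH, and the lack of a bright probe set naming the gene alone limits SHMT1 and MTHFD1L. With 2 arrays per state no outlier test was made.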
